A study of Mus musculus with 2 samples.

Results

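The genes described here are 9 markers of the thalamus: Tnnt1, Ramp3, Shox2, Tcf7l2, Prkcd, Gbx2, Lef1, Rora and Slc17a6. They were measured on arrays of dissected mouse hypothalamus. Members were chosen by name with earlier results of these arrays known, so their levels and ratios are a description without a test. Their probes were found by gene symbol or an older synonym, which gave 19 probes for 9 of the 21501 named genes. A further 3 probes labelled Tcf4, an older synonym of Tcf7l2, were left out, because their accession belongs to the separate gene Tcf4. The study asked how a PPARα agonist acts on gene expression in the hypothalamus. Mice that received bezafibrate, a fibrate that activates PPAR nuclear receptors, were set against control mice at ZT10 and ZT22, zeitgeber times counted in hours from lights on. A square block of brain around the hypothalamus was taken, and equal amounts of RNA from 4 mice made up the pool for each diet and time, and each pool was read on its own Cy3-labelled array. By the labels, the feeding began at 8 weeks of age, with normal chow for 2 weeks, chow with 0.5% bezafibrate for 2 weeks and normal chow for another 5 weeks. The labels do not say at which of these stages the brains were collected, name no strain or sex, and give no separate schedule for control animals.

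The thalamus lies directly above the hypothalamus and relays sensory and motor signals to the cortex. Its relay neurons are glutamatergic and load synaptic vesicles through the transporter VGLUT2, the product of Slc17a6. Gbx2, Tcf7l2, Lef1, Shox2 and Rora encode transcription factors that are active as thalamic nuclei form or in the mature relay neurons. Prkcd, Ramp3 and Tnnt1 are expressed in relay nuclei of the adult. None of these genes is exclusive to the thalamus: glutamatergic hypothalamic neurons also express Slc17a6, and the central amygdala also expresses Prkcd.

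Each group was 1 pool on 1 array, so the variation among mice is unknown and no p-value is given. Levels are the deposited processed signal as a percentage of the 75th percentile of all features on the same array that are no controls. That percentile was 1010 intensity units for control and 1050 for bezafibrate at ZT10, and 1010 and 893 at ZT22. Ratios are log2 values, and the value after ± combines the errors that the extraction software gave both spots. It is called the scanner error here, had a median of 0.20 in every comparison and leaves out the spread between mice. It was the same 0.204 for many bright probes, so for these it is a fixed share of the signal and no measured noise. The median standard deviation between probes of the same gene was 0.08 to 0.12 in log2. Signals of different probes cannot be compared with each other, so levels are compared between arrays only. The 4 arrays shared 1 slide, with the control pools at positions 1 and 2 and the bezafibrate pools at positions 3 and 4. Diet and position on the slide therefore cannot be told apart. Of 16 markers of hypothalamic nuclei, 15 were well above background on all 4 arrays. Of the 9 thalamus markers, 8 were, as were 15909 of the 21501 named genes, so these counts do not set the markers apart. Transcripts of both regions' markers were present in the dissected blocks.

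Among the 8 members well above background on all 4 arrays, Tnnt1, Ramp3 and Prkcd were furthest apart between diets at ZT10. At ZT10 they were 2.14-fold, 1.75-fold and 1.67-fold lower in the bezafibrate pool than in the control pool, and at ZT22 they were 1.29-fold, 1.20-fold and 1.21-fold lower. Shox2 was well above background in both control pools and in neither bezafibrate pool. It was 2.02-fold and 1.996-fold lower with its dim signal set to the lowest signal called well above background. These are no strict bounds. The other 5 members lay within 1.3-fold of their control level at both times by their brightest probe. All 8 members that could be measured on every array had their highest signal in the control pool at ZT10, against 18.9% of all genes measured so.

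**Figure D1:**
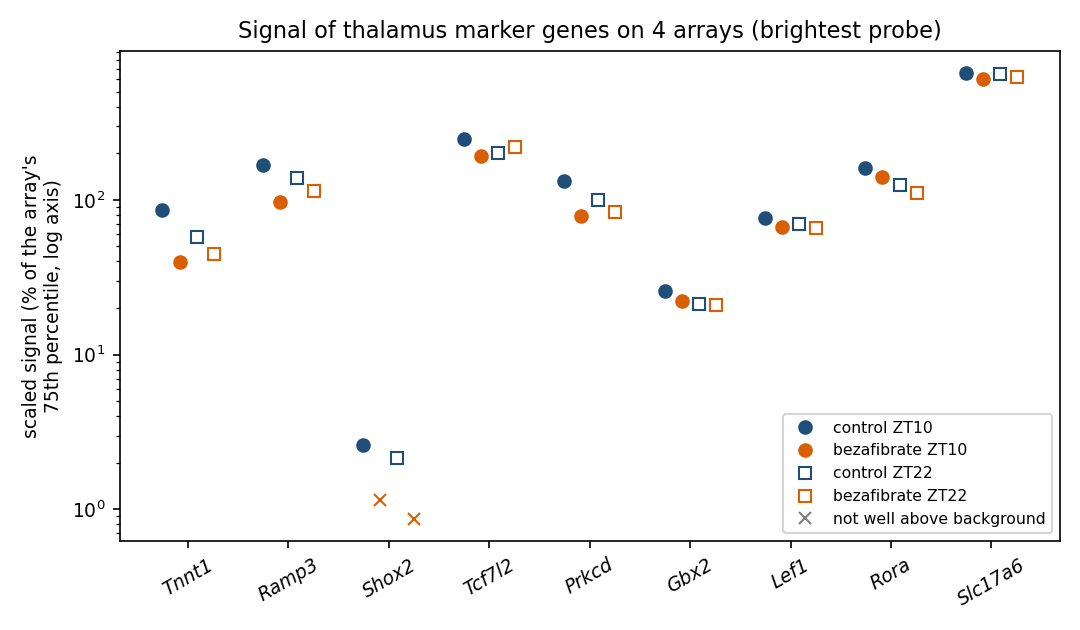
Scaled signal of the brightest probe of each of the 9 thalamus markers, as a percentage of the array's 75th percentile on a log axis, with 1 point for each of the 4 pools; crosses are spots not well above background. Tnnt1 is at 85.4% for control and 39.9% for bezafibrate at ZT10, and Shox2 has crosses in both bezafibrate pools; heights of different genes cannot be compared.

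The regions before the starts of Tnnt1, Ramp3 and Prkcd are shown because these 3 members passed 1.5-fold together at ZT10. Each is the 250 bases upstream of the RefSeq start on build GRCm38.p6, at chr7:4515976-4516225 (minus strand), chr11:6658283-6658532 (plus strand) and chr14:30626209-30626458 (minus strand). Capitals mark the letters TATAAA of a TATA box, the GC box GGGCGG bound by SP factors, and the E-box CACGTG, each on either strand. Clock and other helix-loop-helix proteins bind the E-box. The E-box of Prkcd overlaps the first of its GC boxes by 1 base.
Tnnt1: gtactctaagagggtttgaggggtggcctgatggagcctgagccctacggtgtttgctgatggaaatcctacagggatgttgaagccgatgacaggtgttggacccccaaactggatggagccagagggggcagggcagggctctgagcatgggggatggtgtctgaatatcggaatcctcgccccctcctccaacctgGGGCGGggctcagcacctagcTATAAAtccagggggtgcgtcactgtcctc
Ramp3: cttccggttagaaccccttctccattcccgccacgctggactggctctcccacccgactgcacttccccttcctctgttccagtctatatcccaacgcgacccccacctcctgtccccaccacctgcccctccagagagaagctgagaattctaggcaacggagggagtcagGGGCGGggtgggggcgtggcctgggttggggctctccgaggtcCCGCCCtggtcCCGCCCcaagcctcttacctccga
Prkcd: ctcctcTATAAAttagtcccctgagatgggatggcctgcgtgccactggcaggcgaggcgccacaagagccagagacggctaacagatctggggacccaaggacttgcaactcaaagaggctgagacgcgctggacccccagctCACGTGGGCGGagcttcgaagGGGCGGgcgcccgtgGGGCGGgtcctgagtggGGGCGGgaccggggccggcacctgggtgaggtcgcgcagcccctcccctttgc
Tnnt1 held a TATA box that begins 30 bases before the start, and its GC box begins 51 bases before it. Ramp3 held 3 GC boxes and no TATA box in this window. Prkcd held 4 GC boxes, an E-box 106 bases before the start and the letters TATAAA 244 bases before it.

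All 9 members matched an upstream region in the RefSeq table. Each member was read at its start that lies farthest upstream, while the shares of all regions count every distinct start of each gene. A GC box lay in 8 of the 9, against 32.7% of the 32851 upstream regions of that length. The letters TATAAA lay anywhere in the window in 3 of 9 (12.4% of all regions) and an E-box in 2 of 9 (6.02%). The TATAAA matches began 30 bases before the start in Tnnt1, 203 in Shox2 and 244 in Prkcd. These 3 motifs were added after the sequences had been seen. The core CTTTGAT, read by TCF and LEF factors such as Tcf7l2 and Lef1, matched none of the 9 regions and 3.21% of all. The single site AGGTCA, read by RORα and other nuclear receptors, also matched none of the 9 and 14.0% of all. A direct repeat of that site with any 1 base between its copies, read by PPAR with its partner RXR, matched none of the 9 and 11 of all regions. The homeodomain core TAATTA matched none of the 9 and 4.84% of all. No match says only that these letters are not in the window.

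Tnnt1 encodes slow skeletal troponin T, a subunit of the contractile apparatus of muscle that is also transcribed in thalamic relay neurons. Its 1 probe (NM_011618) read 85.4% (control) and 39.9% (bezafibrate) at ZT10, and 57.5% and 44.7% at ZT22. Both control pools were above both bezafibrate pools, and the control pool at ZT10 was above the other control pool. The log2 ratio of bezafibrate over control was -1.10 ± 0.20 at ZT10 and -0.36 ± 0.20 at ZT22. At ZT10, 45 of 16129 genes above background on both arrays had a lower ratio. At ZT22, 700 of 16217 genes did.

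Ramp3 encodes a membrane protein that pairs with the calcitonin and calcitonin-like receptors and sets which peptide, amylin or adrenomedullin, they recognise. Its 1 probe (NM_019511) read 168% (control) and 96.2% (bezafibrate) at ZT10, and 138% and 114% at ZT22. Both control pools were again above both bezafibrate pools. The log2 ratio was -0.81 ± 0.20 at ZT10 and -0.27 ± 0.20 at ZT22. Of its relatives and partners, Ramp1 stood at 0.00 and 0.00, Ramp2 at -0.03 and -0.15 and the receptor Calcrl at 0.18 and 0.02, all within 1 scanner error of 0. These 3 genes were picked for their link to Ramp3 and not by the rule for naming genes. Another probe of Ramp2 stood at 0.71 at ZT10.

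Prkcd encodes protein kinase Cδ, a kinase activated by diacylglycerol. Both of its probes carry the accession NM_011103. The brighter probe read 132% (control) and 79.0% (bezafibrate) at ZT10, and 100% and 82.9% at ZT22. The dimmer probe read 53.0% and 33.8% at ZT10, and 37.7% and 27.2% at ZT22. On both probes the control pools were above the bezafibrate pools at each time, without overlap between diets. The log2 ratios at ZT10 were -0.74 ± 0.20 and -0.65 ± 0.20 for the brighter and dimmer probe, and at ZT22 they were -0.27 ± 0.20 and -0.47 ± 0.21. For the dimmer probe these are 1.57-fold and 1.39-fold in favour of control. Of its relatives, the protein kinase C gene Prkce stood at -0.07 ± 0.20 and 0.06 ± 0.20, and Prkcb at -0.10 ± 0.20 and 0.31 ± 0.20, with its other probe at -0.15 at ZT22.

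Shox2, a homeobox transcription factor, was the 1 member not well above background on all 4 arrays. Its 1 probe (NM_013665) had an unscaled intensity of 26.4 (control) and 12.1 (bezafibrate) at ZT10, and 21.6 and 7.79 at ZT22. The lowest signal of any probe well above background on the bezafibrate arrays was 13.6 units at ZT10 and 9.57 at ZT22. With the dim signal set to that limit after scaling, the control pool exceeded the bezafibrate pool in Shox2 2.02-fold at ZT10 and 1.996-fold at ZT22. Neither value is a strict bound, and each rests on a spot near the detection limit and on 1 probe.

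**Figure D2:**
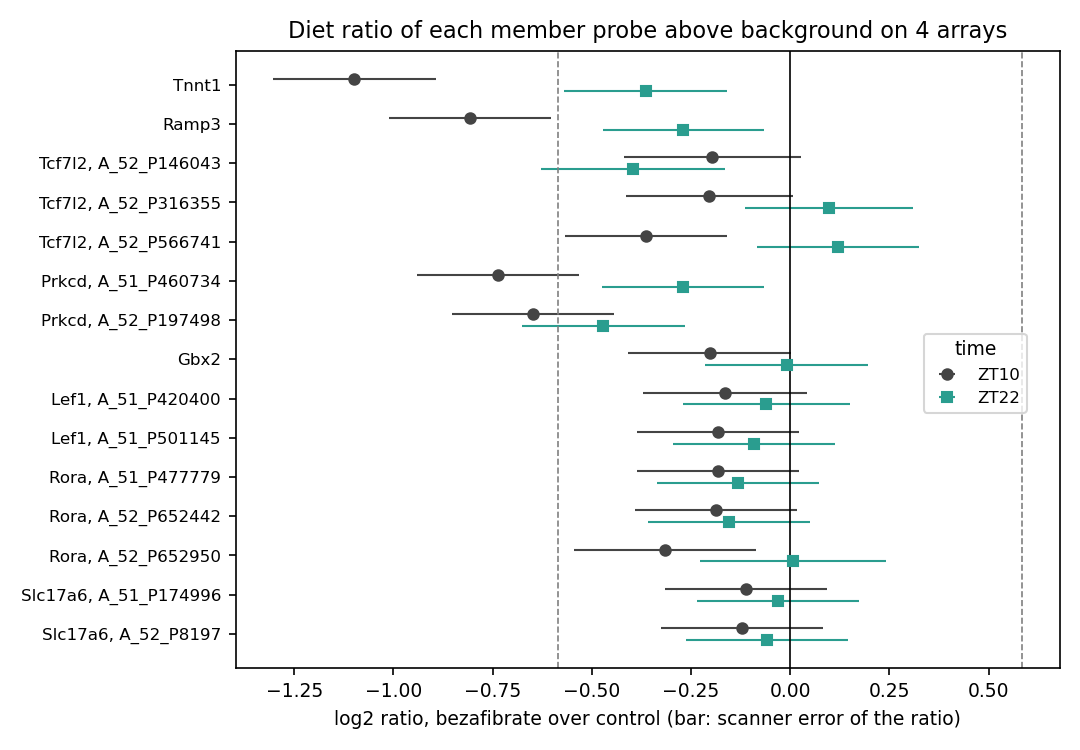
Log2 ratio of bezafibrate over control at ZT10 (circles) and ZT22 (squares) for the 15 member probes well above background on all 4 arrays, with bars for the scanner error of each ratio and dashed lines at 1.5-fold. All 15 probes, which belong to 8 genes, lie left of 0 at ZT10 and 12 do at ZT22. Of all genes, by their brightest probe, 47.3% and 47.8% do. The probes of Tnnt1, Ramp3 and Prkcd lie left of the dashed line at ZT10.

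Tcf7l2 and Lef1 encode the DNA-binding partners of β-catenin at the end of the canonical Wnt pathway, and Tcf7l2 marks the thalamus and habenula throughout life. The brightest Tcf7l2 probe (NM_009333) read 248% (control) and 192% (bezafibrate) at ZT10, and 201% and 218% at ZT22. The diets therefore overlapped, with bezafibrate above control at ZT22. The log2 ratio was -0.36 ± 0.20 at ZT10 and 0.12 ± 0.20 at ZT22. The other probes of Tcf7l2 with that accession were far dimmer, at 5.24% to 11.2% at ZT10, and gave -0.20 each at ZT10 and 0.10 and -0.40 at ZT22. The Tcf7l2 probes thus share the direction at ZT10 and differ in it at ZT22. A further probe (AY072035) was not well above background on any array.

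Lef1 was measured by a brighter probe (AK083328) at 76.0% (control) and 67.0% (bezafibrate) at ZT10, and 69.5% and 65.3% at ZT22. The log2 ratio was -0.18 ± 0.20 at ZT10 and -0.09 ± 0.20 at ZT22. The dimmer probe (NM_010703) gave -0.16 and -0.06. All of these lie within 1 scanner error of 0. A further probe (AK042137) was not well above background on any array.

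Of 13 measured genes of the β-catenin and TCF/LEF pathway, 7 were lower at ZT10 (median -0.02) and 8 at ZT22 (median -0.04). Among all genes 47.3% and 47.8% were lower. β-catenin itself (Ctnnb1) stood at 0.01 ± 0.20 and 0.09 ± 0.20, and the membrane inhibitor of Wnt signalling Apcdd1 at -0.02 ± 0.20 and -0.27 ± 0.20, with its other probe at 0.14 at ZT22. The repressor Tcf7l1 stood at 0.29 ± 0.20 at ZT10 and was 1.80-fold lower at ZT22 (-0.85 ± 0.20). Its other probe gave 0.02 and 0.22, so its probes disagree at ZT22.

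Gbx2, a homeobox factor needed for thalamic neurons to form, read 25.6% (control) and 22.3% (bezafibrate) at ZT10, and 21.2% and 21.1% at ZT22. Its log2 ratio was -0.20 ± 0.21 at ZT10 and -0.01 ± 0.21 at ZT22, and the latter was 0.01 after scaling to the median and 0.06 after normexp correction. The direction of Gbx2 at ZT22 therefore turned with the scaling. A second Gbx2 probe (AK051578) was not well above background on any array.

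Rora encodes the orphan nuclear receptor RORα, which also takes part in the circadian clock by activating Arntl. Its brightest probe (NM_013646) read 159% (control) and 140% (bezafibrate) at ZT10, and 124% and 111% at ZT22. Here the pools at ZT10 were above those at ZT22 in both diets. The diet ratio was -0.19 ± 0.20 at ZT10 and -0.15 ± 0.20 at ZT22. The ratio of ZT22 over ZT10 was -0.37 ± 0.20 in control and -0.33 ± 0.20 in bezafibrate mice. A second probe of the same accession gave -0.31 and -0.26 for time. The third, dimmer probe (AK087905) gave -0.33 in control and 0.00 in bezafibrate mice.

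Slc17a6, the vesicular glutamate transporter of subcortical neurons, had the smallest span over the 4 arrays among the 8 measured members. Its brighter probe (NM_080853) read 659% (control) and 607% (bezafibrate) at ZT10, and 648% and 622% at ZT22. The diet ratio was -0.12 ± 0.20 at ZT10 and -0.06 ± 0.20 at ZT22, and the other probe gave -0.11 and -0.03. The highest array was 1.09-fold above the lowest.

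Counted by the brightest probe, 8 of 8 measured members were lower with bezafibrate at ZT10, with a median log2 ratio of -0.28. Of all genes measured in that comparison, 47.3% were lower, and their median was 0.01. At ZT22, 7 of 8 were lower (median -0.12), against 47.8% of all genes (median 0.01). Lower at both times were 7 of 8, against 24.8% of all genes. Past 1.5-fold in that direction at ZT10 were 3 of 8, against 1.39% of all genes, and past 2-fold was 1 of 8, against 0.36%. At ZT22 none of the 8 was 1.5-fold lower, against 1.91% of all genes. The members were chosen from these same ratios, so nothing is read from the counts. In bulk tissue, fewer cells of a type and less RNA per cell cannot be told apart.

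The size of the ratio differed between the times. The ratio at ZT22 minus the ratio at ZT10 was 0.73 ± 0.29 for Tnnt1, 0.54 ± 0.29 for Ramp3, 0.48 ± 0.29 for Tcf7l2 and 0.47 ± 0.29 for the brighter probe of Prkcd, with the errors of all 4 spots combined. For the dimmer Prkcd probe it was 0.18 ± 0.29, and for the dim Tcf7l2 probes it was 0.30 ± 0.30 and -0.20 ± 0.32, so the Tcf7l2 probes differ in direction. For Gbx2, Lef1, Rora and Slc17a6 it was 0.03 to 0.19 by the brightest probe. Over the 8 members the ratios at both times had a Pearson correlation of 0.78 and a Spearman correlation of 0.60, a description across genes of the same pools.

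With time of day, all 9 members were lower at ZT22 than at ZT10 in control mice (median log2 ratio -0.29), against 40.4% of all genes, and none of the 9 by 1.5-fold, against 2.07%. In bezafibrate mice 3 of 8 were lower (median 0.05), against 40.8% of all genes, and none by 1.5-fold, against 1.6%. The control pool at ZT10 enters both the diet comparison at ZT10 and the time comparison in control mice, so these are not separate observations. It was the highest array for all 15 member probes above background on all 4 arrays, and for 18.9% of all genes. Tnnt1 was 1.49-fold lower at ZT22 than at ZT10 in control mice (-0.57 ± 0.20) and stood at 0.16 ± 0.20 in bezafibrate mice. Prkcd stood at -0.40 ± 0.20 and 0.07 ± 0.20, and Ramp3 at -0.29 ± 0.20 and 0.25 ± 0.20. The comparisons that leave out the control pool at ZT10 are diet at ZT22 and time in bezafibrate mice, and none of the 8 members was 1.5-fold apart in either by its brightest probe. Shox2, outside these 8, was 1.996-fold lower for diet at ZT22 with its dim signal set to the limit, which is no strict bound. The lowest array was a bezafibrate array for all 8 members, at ZT10 for 5 and at ZT22 for 3, and for 48.5% of all genes. Both control pools were above both bezafibrate pools for 5 of 8 members and 12.5% of all genes.

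**Figure D3:**
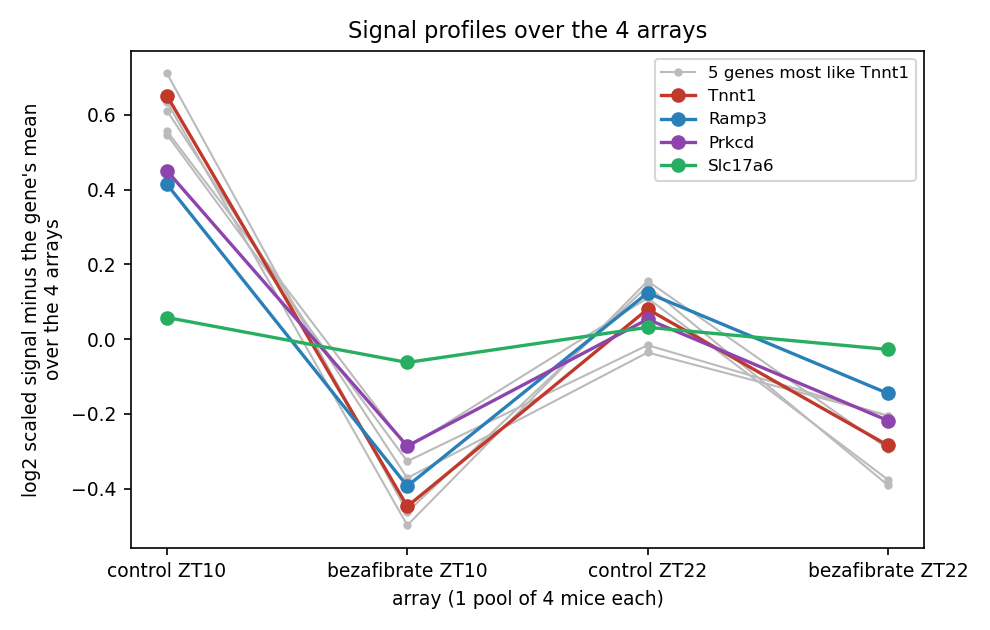
Log2 scaled signal minus the gene's mean over the 4 arrays, for Tnnt1, Ramp3, Prkcd and Slc17a6 (coloured) and the 5 genes whose profile was nearest to that of Tnnt1 (grey); each point is 1 pool of 4 mice, and lines only join the values of a gene. Tnnt1, Ramp3 and Prkcd share the order control ZT10, control ZT22, bezafibrate ZT22, bezafibrate ZT10, and Slc17a6 spans 1.09-fold.

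The likeness of other genes to Tnnt1 was measured as the root mean square distance between log2 signals centred over the 4 arrays, among 1406 genes whose highest array was at least 1.5-fold above the lowest. The nearest 5 were Rad51b (0.05), Rasal3 (0.07), Ncapg (0.08), Lrrc71 (0.10) and Magix (0.10). Rad51b stood at -1.13 ± 0.22 at ZT10 and -0.45 ± 0.22 at ZT22. Prkcd and Ramp3 were the 8th and 9th nearest, each at a distance of 0.13 to 0.14. With 4 arrays this is a description of these pools.

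A second list of 16 thalamus markers that shares no gene with the 9 members had median diet ratios nearer 0. All 16 were above background on every array. At ZT10, 11 of 16 were lower with bezafibrate (median -0.09), as were 11 of 16 at ZT22 (median -0.06), and 8 were lower at both times. The shares over all genes were 47.3%, 47.8% and 24.8%. Synpo2, an actin-binding protein, was lower by 1.57-fold at ZT10 (-0.65 ± 0.20) and by 1.39-fold at ZT22 (-0.48 ± 0.20). Its signal was 190% and 171% in the control pools and 121% and 123% in the bezafibrate pools, with no overlap. Its 3 other probes ranged from -0.60 to 0.22 at ZT10. Plekhg1, chosen after its values were seen, stood at -0.46 ± 0.20 and -0.31 ± 0.20. The brightest genes of the list, Adarb1, an RNA-editing enzyme, and the transcription factor Zic1, stood at -0.07 and 0.16 at ZT10 and at 0.01 and -0.07 at ZT22.

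Marker lists of neighbouring nuclei of the diencephalon had median diet ratios from -0.08 to 0.10. For the counts below, 47.3% of all genes were lower at ZT10, 47.8% at ZT22 and 24.8% at both times. Of 7 measured habenula markers, 2 were lower at ZT10 (median 0.04) and 2 at ZT22 (median 0.08), and none at both times. Among them Gpr151 stood at 0.65 ± 0.30 at ZT10 on a signal near background, Lrrc55 at 0.18 and -0.07 and Nwd2 at 0.01 and 0.04. The 2 lower at ZT10, named after their values were seen, were Htr5b (-0.47 ± 0.36) and Chrna3 (-0.30 ± 0.32), also near background. Of 6 markers of the reticular thalamic nucleus and zona incerta, 2 were lower at ZT10 (median 0.10) and 4 at ZT22 (median -0.08), with Ecel1 at -0.07 and -0.20 and Spp1 at 0.06 and -0.23. The difference between these lists and the members was not tested.

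**Figure D4:**
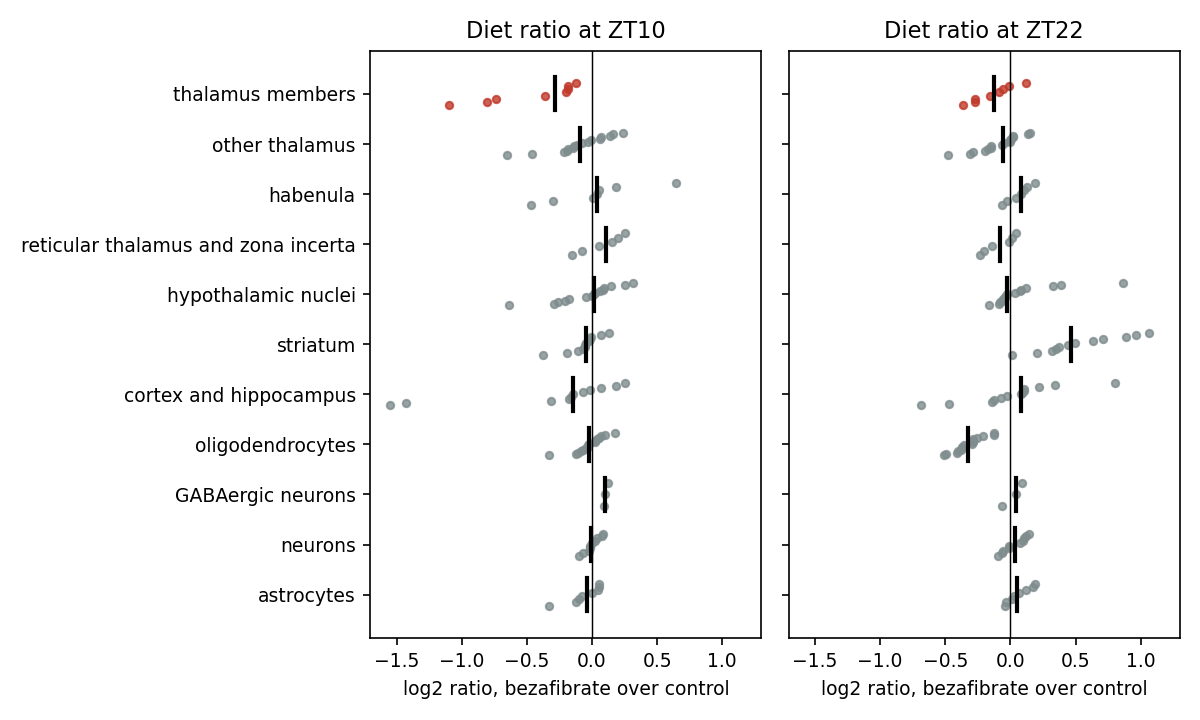
Log2 ratios of bezafibrate over control at ZT10 (left) and ZT22 (right), with 1 point per gene above background on both arrays and a bar at the median of each list; the thalamus members are in red. Their medians are -0.28 and -0.12, and the striatum list stands at 0.47 and the oligodendrocyte list at -0.33 at ZT22.

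Markers of other tissues also differed between the same pools. For comparison, 47.3% of all genes were lower with bezafibrate at ZT10 and 47.8% at ZT22. At ZT10, all 7 measured anterior pituitary markers were lower with bezafibrate (median -0.70). The summed signal of the 8 markers with a probe, in multiples of the 75th percentile, was 5.28 for control and 3.09 for bezafibrate. Prl stood at -4.48 ± 0.33, with its bezafibrate signal near background (1.69%). Of 11 cortex and hippocampus markers, 8 were lower (median -0.14; summed signal 11.3 and 11.8), with Neurod2 at -1.55 ± 0.21 and its other probe at -0.50. At ZT22, all 12 striatum markers were higher (median 0.47; summed signal 80.9 and 109). Choroid plexus markers were higher in 10 of 12 (median 0.88; 20.7 and 26.8), with Ttr 13.6-fold higher. All 16 oligodendrocyte markers were lower (median -0.33; 280 and 243). The cortex and hippocampus list was split at ZT22, with 6 of 13 lower (median 0.08, summed signal 11.5 and 13.1). Neurod6 stood at 0.80 ± 0.36 and Neurod1, chosen after its values were seen, at -0.68 ± 0.31. Both were near background, Neurod6 at 1.92% (control) and 3.35% (bezafibrate) and Neurod1 at 3.31% and 2.06%. The pituitary list was split too, with 2 of 5 lower (median 0.26; 4.23 and 5.73), and Tshb at 1.35 ± 0.21 with its other probe at -0.09. Prl and Gh, the latter chosen after its values were seen, are outside these 5, because they were well above background at ZT22 in the control pool alone (5.86% and 6.33%). Markers of hypothalamic nuclei had medians of 0.02 and -0.03, with Six6 at -0.63 ± 0.23 at ZT10 and Rax at 0.87 ± 0.22 at ZT22. Neurons in general had medians of -0.01 and 0.03, and the 3 genes of GABAergic neurons 0.10 and 0.04. Astrocyte markers had medians of -0.04 and 0.05, microglia markers 0.00 and -0.05, and vessel and meninges markers -0.08 and -0.19. The part of these tissues in the values of the thalamus markers was not tested. With 1 pool per diet and time, the amount of thalamus in each block and an effect of diet cannot be told apart.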

How the data were processed

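RNA pooled from 4 mice per group was labelled with Cy3 from 400 ng of total RNA, per the labels' protocols. Spots were extracted by the authors with Feature Extraction 9.5.1.1, per the file headers. As deposited, the processed signal was an intensity, background-subtracted and detrended within the array and not normalized between arrays. Other deposited columns mark spots by 0 or 1 values (well above background, saturated, outlier). Per the labels, the authors' deposited value table is a ratio of the bezafibrate over the control array, and its scale and direction were checked: it was linear and correlated with the log2 ratios of the array files at r of 0.997 and 0.994. The medians of its columns were -0.08 and -0.06 in log2. How it was scaled is not given in the sources used here.

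The 41174 probes were scaled to the 75th percentile of all spots of each array that are no controls. Outlier spots (73 to 142 per array) count in that percentile and were left out of the probe values. No spot was saturated. Names came from RefSeq accessions (22951 probes), symbols (5850) or older symbols (3944), while 2225 carry the name of the array files and 6204 are unnamed. Each gene was represented by its brightest probe, and 15909 genes were well above background on all 4 arrays. Members and lists were chosen with earlier results of these data known. Besides members, genes were named when at least 1.5-fold apart between diets (up to 4 per list, or 1 per other tissue and time), as the 2 brightest of a thalamic or pathway list, or as the 5 nearest to Tnnt1; a gene that the rule names may be not reported here. Scripts ran in Python 3.11.15, and alternatives used limma 3.58.1 (quantile, normexp with offset 50). The ratio step was tested on simulated data. The number of arrays limits the precision.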

Additional observations from a re-analysis of the deposited data

Results flagged for a closer look

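The time ratio of Ramp3 had opposite directions in the 2 diets, at -0.29 ± 0.20 in control mice and 0.25 ± 0.20 in bezafibrate mice, each beyond its scanner error. The difference was 0.54 in log2 and was not tested, since each diet and time was 1 pool. It is the same quantity as the change in the diet ratio of Ramp3 between the times given above, and no separate observation. By the brightest probe, Tnnt1, Tcf7l2, Prkcd and Slc17a6 also had opposite time directions in the diets, and Gbx2, Lef1 and Rora did not. With probes averaged, Tcf7l2 and Prkcd did not either. All of these time ratios in control mice use the control pool at ZT10. Ramp3 was measured by 1 probe.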

How the results depend on the processing

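Each array was a group of its own, so no array could be left out and no replicate spread was available; a value counted as moved when it shifted by more than the scanner error (single genes) or the usual disagreement between probes of the same gene (medians). No paired analysis was possible because each group had 1 array. Under 7 alternatives, 206 of 213 values of single members kept their direction, and all 213 stayed within 1 scanner error. The 7 that turned belonged to Gbx2, Slc17a6, Tcf7l2 and Prkcd, for diet at ZT22 or time in bezafibrate mice. Many of the 213 values could not change, so these counts are no measure of robustness. Dropping the filter on dim probes, or asking for a minimum mean signal, leaves the ratio of a measured probe as it is. So does averaging the probes of a member with 1 measured probe. Scaling to the median left the time ratios in control mice unchanged. With the probes of a gene averaged, the median time ratio of the members in bezafibrate mice turned from 0.05 to -0.047, and 5 of 8 members were lower in place of 3. The median diet ratio of the members at ZT10 was -0.36 without a filter on dim probes, where Shox2 enters. It was -0.37 in the authors' deposited ratio table, where the second thalamus list was at -0.18; that table carries a constant log2 offset of -0.09 at ZT10. Dim signals limit Shox2 and the dim probes of Tcf7l2, Gbx2 and Lef1.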
